A study of Rattus norvegicus with 16 samples.

Results

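The fibrillar collagens, elastin, fibronectin and lysyl oxidase of the arterial wall and the renal interstitium were followed in the aorta and kidney of adult rats that had been exposed to hyperoxia as newborns. These 6 genes, Col1a1, Col1a2, Col3a1, Eln, Fn1 and Lox, were chosen as structural matrix genes of the arterial wall out of 23918 genes measured. Matrix genes are a theme that the study itself drew from these aortas, and the choice was made with earlier results of these data known, so the counts of members set beside shares of all genes below are descriptions and not independent evidence. The files list genes by identifier only, so the members were taken as ENSRNOG00000003897 (Col1a1), ENSRNOG00000011292 (Col1a2), ENSRNOG00000003357 (Col3a1), ENSRNOG00000001469 (Eln), ENSRNOG00000014288 (Fn1) and ENSRNOG00000014426 (Lox). These pairs of name and identifier came with the choice of members, and 0 of the 23918 identifiers could be looked up in the reference table used here. All 6 passed the filter on low counts in both tissues.

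The samples were 16 polyA-selected RNA-seq libraries from 1-year-old male wild-type Sprague-Dawley rats, 4 in each of 4 groups. Hyperoxia rats were kept in 85% oxygen from postnatal day 1 to 14 and then in room air, and control rats were kept in room air (RA, called normoxia in the labels) throughout. The aorta was the arch with the thoracic part, and nursing mothers were rotated between the chambers. Both tissues were taken whole, so fewer cells of a type and less RNA per cell cannot be told apart, and the cell types present were not analysed here because marker genes could not be matched to identifiers.

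Type I collagen, a trimer of the products of Col1a1 and Col1a2, and type III collagen, made from Col3a1, form the stiff fibrils of the arterial adventitia and media and of the renal interstitium. Elastin, encoded by Eln, gives large arteries their recoil and is laid down mostly in early life. Fibronectin, encoded by Fn1, is an adhesive glycoprotein on which collagen fibrils assemble, and lysyl oxidase, encoded by Lox, cross-links both collagen and elastin.

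A promoter sequence was at hand for only 1 of the 6 members, Col1a2, and is shown for that reason. It covers chr4:33518307-33518606 of GRCr8 on the + strand (RefSeq), from 250 bases before the annotated start to 50 after it. The capitals mark ATTGG, which is CCAAT read on the other strand, at -221 from that start, and TATAAA at -170. The last 50 bases open with ATG, a start codon, so the annotated start may be that of translation. These offsets are therefore not distances from a known start of transcription.
Col1a2: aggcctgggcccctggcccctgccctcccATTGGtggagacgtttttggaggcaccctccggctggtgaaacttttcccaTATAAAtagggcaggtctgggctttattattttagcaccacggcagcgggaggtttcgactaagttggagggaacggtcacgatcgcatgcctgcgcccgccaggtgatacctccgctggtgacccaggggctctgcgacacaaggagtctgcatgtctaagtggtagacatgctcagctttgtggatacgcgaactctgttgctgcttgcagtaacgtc
CCAAT occurred on either strand in 37.49% and TATAAA in 14.22% of the 33469 rat promoter windows of this length, and the pair does not overlap in the window of Col1a2. These matches describe the letters only.

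Every hyperoxia aorta was sequenced more deeply than every RA aorta, with totals, in units of 1000000 estimated counts, of 68.6 to 83.9 against 33.6 to 47.0 (exact permutation p = 0.0286), whereas kidney totals were 25.03 to 26.5 (exact permutation p = 0.514). The 10 most abundant genes took 28.7% and 39.6% of counts in RA aorta replicates 1 and 2 and 14.98% and 12.4% in replicates 3 and 4, against 12.3% to 24.2% in hyperoxia aortas and 24.9% to 34.5% in kidneys. The members together took 0.743% to 1.87% of counts in RA aortas, 1.84% to 2.48% in hyperoxia aortas and 0.0125% to 0.0295% in kidneys. Levels below are CPM (counts per 1000000 counts of a library) scaled by TMM within a tissue, and no level is compared between genes because transcript lengths were not used here.

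In the aorta, elastin, lysyl oxidase and the 3 collagen genes were measured higher in every hyperoxia library than in every RA library, by 1.6- to 2.2-fold, whereas fibronectin overlapped between the groups. None of the 6 passed the edgeR quasi-likelihood test after adjustment over 15086 genes, at an adjusted p (FDR) under 0.1 and a log2 difference above 0.32, a call that 0.0133% of all genes reached in the upward direction. With DESeq2 at the same thresholds, the tool named in the study's methods, Lox, Eln, Col3a1 and Col1a2 were called higher, against 0.639% of genes. At an unadjusted p under 0.05 in edgeR, 5 of the 6 were higher, against 3.33% of genes, and non-overlapping groups with hyperoxia above RA occurred in 2.1% of genes. Scaled by library totals alone, Eln and Lox still did not overlap while the collagens did, against 0.901% of genes.

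**Figure D1:**
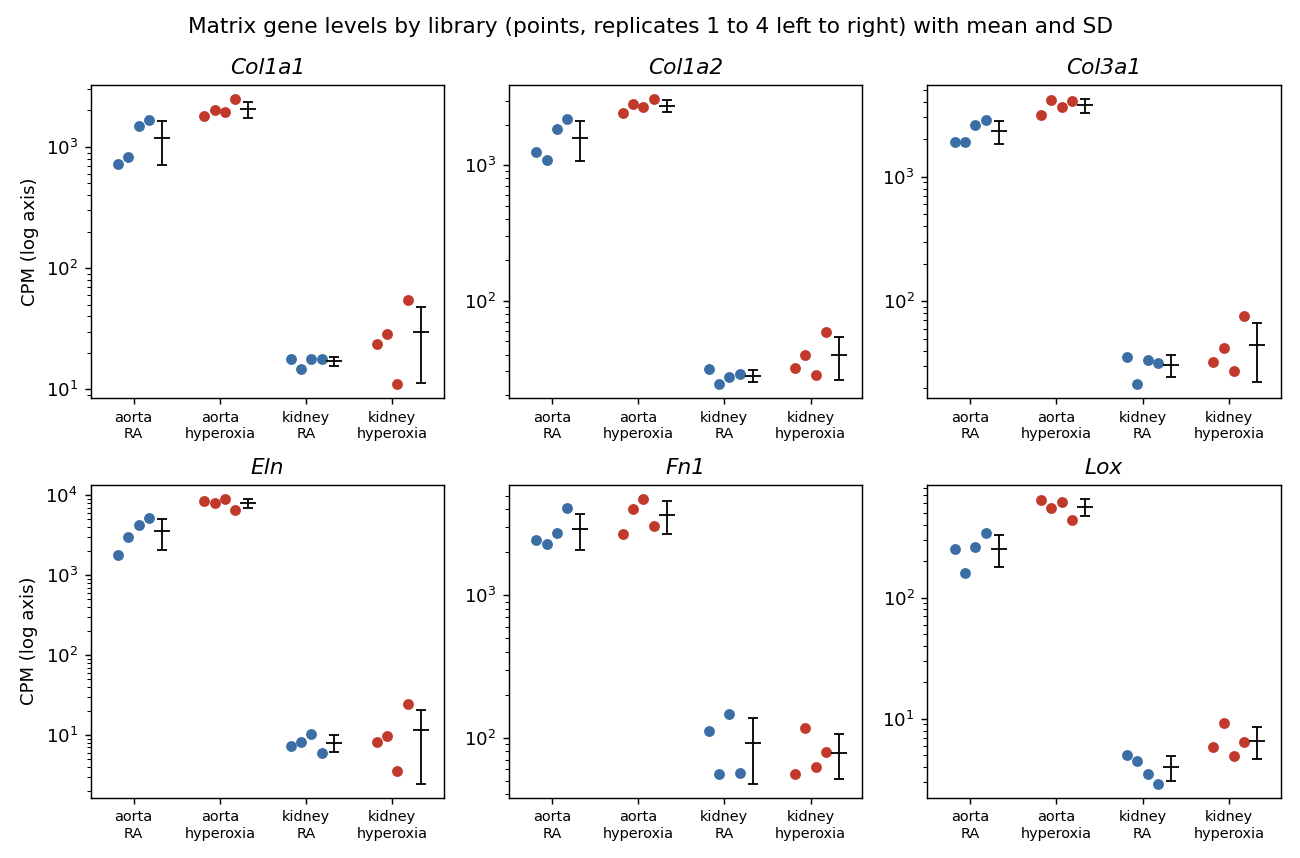
Level of each gene in each library as CPM on a log axis, with aorta and kidney groups along the x axis, RA in blue, hyperoxia in red, points for replicates 1 to 4 from left to right, and the mean with SD in black (n = 4). In the aorta only Fn1 overlaps between RA and hyperoxia, and all 6 genes lie lower in the kidney than in the aorta.

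Eln in RA aortas was 1793, 2981, 4216 and 5224 CPM in replicates 1 to 4, a mean of 3554 ± 1489 (SD, n = 4). In hyperoxia aortas it was 8474, 7933, 8935 and 6514 CPM, a mean of 7964 ± 1050 (SD, n = 4). Every hyperoxia aorta was above every RA aorta, and the RA libraries were spread over a 2.91-fold range against 1.37-fold in hyperoxia. The log2 difference was 1.16 (SE 0.32, 95% confidence interval 0.44 to 1.89), 2.24-fold, with an adjusted p of 0.510 in edgeR and 0.0285 in DESeq2.

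Lox was 254, 161, 262 and 340 CPM in RA aortas (254 ± 73.6, SD, n = 4). It was 644, 553, 611 and 436 CPM in hyperoxia aortas (561 ± 91.4, SD, n = 4). The enzyme's transcript separated the groups with a gap between 340 and 436 CPM. Its log2 difference of 1.14 (SE 0.23, 95% confidence interval 0.61 to 1.67), 2.21-fold, was 28th by p among the 15086 genes, with an adjusted p of 0.431 in edgeR and 0.00210 in DESeq2.

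Among the collagen genes, Col1a1 was 723, 828, 1479 and 1682 CPM in RA aortas and 1785, 2009, 1925 and 2480 CPM in hyperoxia aortas. Col1a2, the other chain of the same trimer, was 1247, 1086, 1858 and 2203 CPM in RA and 2438, 2858, 2673 and 3079 CPM in hyperoxia. Col3a1 was 1902, 1912, 2581 and 2866 CPM in RA and 3136, 4142, 3617 and 4055 CPM in hyperoxia. In all 3 the RA replicates 1 and 2 were the lowest libraries, and RA replicate 4 was the highest RA library, just under the lowest hyperoxia library. The log2 differences were 0.80 for Col1a1 (SE 0.29, 95% confidence interval 0.15 to 1.45), 0.79 for Col1a2 (SE 0.25, 0.23 to 1.35) and 0.69 for Col3a1 (SE 0.21, 0.22 to 1.16). Each had an adjusted p of 0.510 in edgeR. In DESeq2 the adjusted p was 0.175 for Col1a1, 0.0991 for Col1a2 and 0.0445 for Col3a1.

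Fn1 was 2437, 2307, 2751 and 4101 CPM in RA aortas (2899 ± 823, SD, n = 4) and 2700, 4015, 4746 and 3074 CPM in hyperoxia aortas (3634 ± 925, SD, n = 4). Only hyperoxia replicate 3 was above all RA aortas. The log2 difference of 0.33 had a 95% confidence interval of -0.27 to 0.92 and an adjusted p of 0.707 in edgeR and 0.654 in DESeq2. The median log2 difference over the 6 members was 0.79, and over all genes tested it was -0.015.

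**Figure D2:**
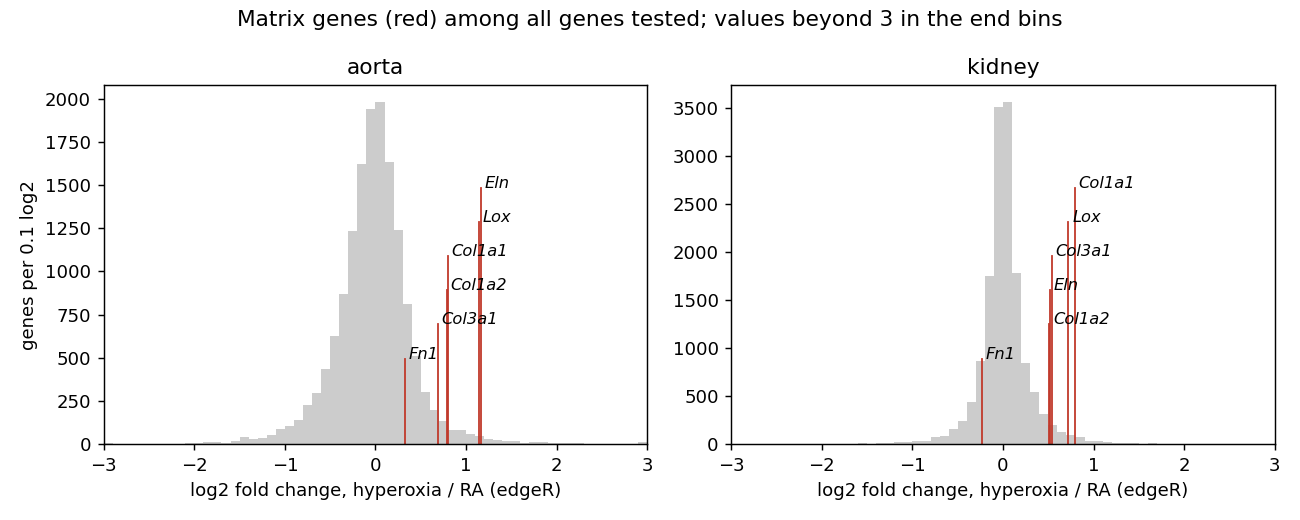
Number of genes per 0.1 log2 of the edgeR log2 fold change of hyperoxia over RA, for all genes tested in the aorta and kidney, with the 6 members marked by red lines whose heights carry no value. In the aorta Eln and Lox lie farthest right at 1.16 and 1.14, and in the kidney Fn1 alone lies below 0 at -0.23.

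RA aorta replicates 1 and 2, the libraries with the largest share of counts in few genes, also held the lowest collagen levels. With each library left out in turn, no member passed the edgeR test, and log2 differences ranged from 0.63 to 1.02 for Col1a1, 0.64 to 0.99 for Col1a2, 0.61 to 0.81 for Col3a1, 0.95 to 1.41 for Eln, 0.17 to 0.54 for Fn1 and 0.98 to 1.32 for Lox. With both of these RA libraries left out, a choice made after seeing the data, the log2 difference was 0.37 for Col1a1, 0.44 for Col1a2, 0.45 for Col3a1, 0.75 for Eln, 0.08 for Fn1 and 0.90 for Lox. The collagen differences were below those of Eln and Lox, as they were with all libraries, but Lox rather than Eln now had the largest value. With the share of the 10 most abundant genes as a covariate, also added after seeing the data, Lox was at 1.10 with an adjusted p of 0.215 in edgeR. With all aorta libraries thinned to the smallest total, the log2 differences were 1.14 for Lox, 1.16 for Eln and 0.79 for Col1a1. Thinning lowers all genes of a library by the same factor, so these values were bound to stay near those at full depth. Exposure in the aorta cannot be told apart from sequencing depth or from whatever made the depths differ. The part that the composition of RA aorta replicates 1 and 2 had in the group difference was otherwise not tested.

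**Figure D3:**
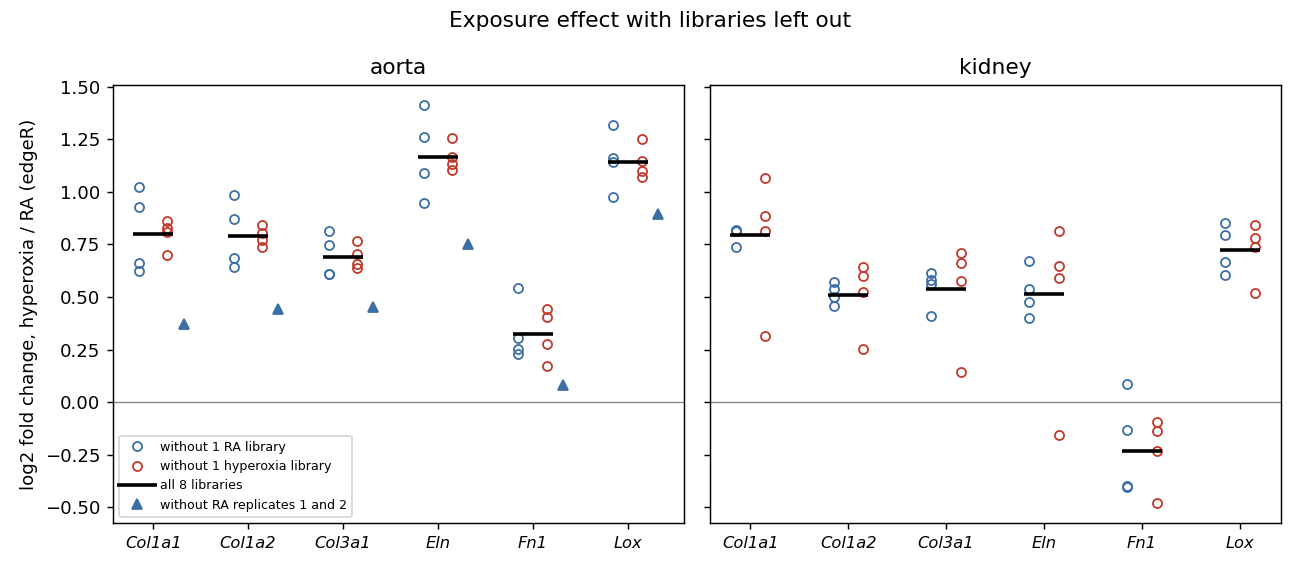
Log2 fold change of hyperoxia over RA (edgeR) for each gene with all 8 libraries of a tissue (black bars), with 1 RA (blue circles) or 1 hyperoxia (red circles) library left out, and in the aorta with RA replicates 1 and 2 left out together (triangles). Every aorta value lies above 0, while Eln and Fn1 in the kidney cross 0 when 1 library is removed.

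In the kidney, 0 of the 6 members passed the edgeR test, as did 0% of genes in the upward direction, with 747 genes at an unadjusted p under 0.05 in either direction. DESeq2 also called 0 members, against 0.0865% of genes. Without hyperoxia replicate 2, DESeq2 called 390 genes in either direction in place of 23, and 0.97% of genes upward. It again called 0 members, of which Lox had the lowest adjusted p at 0.408. Only this kidney was left out in DESeq2, and whether it is the one that the study removed is not known. All 6 overlapped between the groups, and 1.67% of genes had every hyperoxia kidney above every RA kidney. Col1a2 and Lox were higher at an unadjusted p under 0.05, as were 2.81% of genes.

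Lox was 5.05, 4.53, 3.55 and 2.93 CPM in RA kidneys and 5.84, 9.33, 4.91 and 6.40 CPM in hyperoxia kidneys. Only hyperoxia replicate 3, at 4.91 CPM, reached into the RA range. Its log2 difference was 0.72 (SE 0.24, 95% confidence interval 0.17 to 1.28), with an adjusted p of 0.950 in edgeR, and rested on 80 to 280 estimated counts per library.

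Col1a1 was 17.8, 14.8, 17.8 and 17.7 CPM in RA kidneys and 23.6, 28.8, 11.1 and 54.5 CPM in hyperoxia kidneys. The hyperoxia kidneys were spread on both sides of the RA kidneys, over a 4.90-fold range against 1.20-fold in RA, and this difference in spread was not tested. Its log2 difference was 0.79 (SE 0.39, 95% confidence interval -0.10 to 1.69). Col1a2 was 31.1, 24.3, 27.1 and 28.8 CPM in RA and 32.02, 39.5, 28.0 and 59.1 CPM in hyperoxia, a log2 difference of 0.51 (SE 0.22, 95% confidence interval 0.02 to 1.01). Col3a1 was 35.5, 21.7, 33.5 and 31.9 CPM in RA and 32.2, 41.7, 27.6 and 76.4 CPM in hyperoxia, a log2 difference of 0.54 (SE 0.31, 95% confidence interval -0.18 to 1.2502). Hyperoxia kidney 4 was the highest of the 8 kidneys for all 3 collagen genes. Each had an adjusted p of 0.950 in edgeR.

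Eln was 7.33, 8.26, 10.4 and 5.90 CPM in RA kidneys and 8.09, 9.73, 3.58 and 24.2 CPM in hyperoxia kidneys, where replicate 4 was again the highest and replicate 3 the lowest. The log2 difference of 0.52 (SE 0.50, 95% confidence interval -0.61 to 1.64) turned to -0.16 without hyperoxia replicate 4. Fn1 was 111, 55.2, 147 and 56.3 CPM in RA kidneys and 55.4, 118, 62.6 and 78.9 CPM in hyperoxia kidneys, so that both groups held high and low libraries. Its log2 difference of -0.23 (SE 0.36, 95% confidence interval -1.05 to 0.60) turned to 0.086 without RA replicate 3. Without hyperoxia replicate 4 the collagen differences were also at their lowest, 0.32 for Col1a1, 0.26 for Col1a2 and 0.14 for Col3a1. Without hyperoxia replicate 3 they were at their highest, 1.06, 0.65 and 0.71 in the same order. The edgeR unadjusted p-values were then 0.00455, 0.0128 and 0.0480, and each adjusted p was 0.971. The median log2 difference over the 6 members was 0.53, and over all genes tested it was 0.0052.

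The exposure differences of the 2 tissues were then compared directly, in 1 edgeR fit of all 16 libraries. The difference between the tissues, aorta minus kidney on the log2 scale, was 0.69 for Eln (95% confidence interval -0.66 to 2.03), 0.60 for Fn1 (-0.44 to 1.63) and 0.46 for Lox (-0.30 to 1.21). It was 0.31 for Col1a2 (-0.44 to 1.07), 0.19 for Col3a1 (-0.66 to 1.05) and 0.04 for Col1a1 (-1.07 to 1.16). All 6 intervals held 0, and the lowest adjusted p among the 6 was 0.751, for Lox. The adjusted test was passed by 0% of genes in edgeR, with 1277 genes at an unadjusted p under 0.05, and DESeq2 called 85 genes and 0 members. In edgeR 0 members had an unadjusted p under 0.05 with a larger difference in the aorta, against 3.72% of genes. These intervals leave room for differences between the tissues larger than the exposure differences themselves. Without hyperoxia kidney 4, the Eln difference between the tissues was 1.36 (edgeR unadjusted p = 0.0184, adjusted p = 0.555). In that fit 1358 of 16292 genes had an unadjusted p under 0.05 in either direction. The count of 0 members above thus depended on that library.

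**Figure D4:**
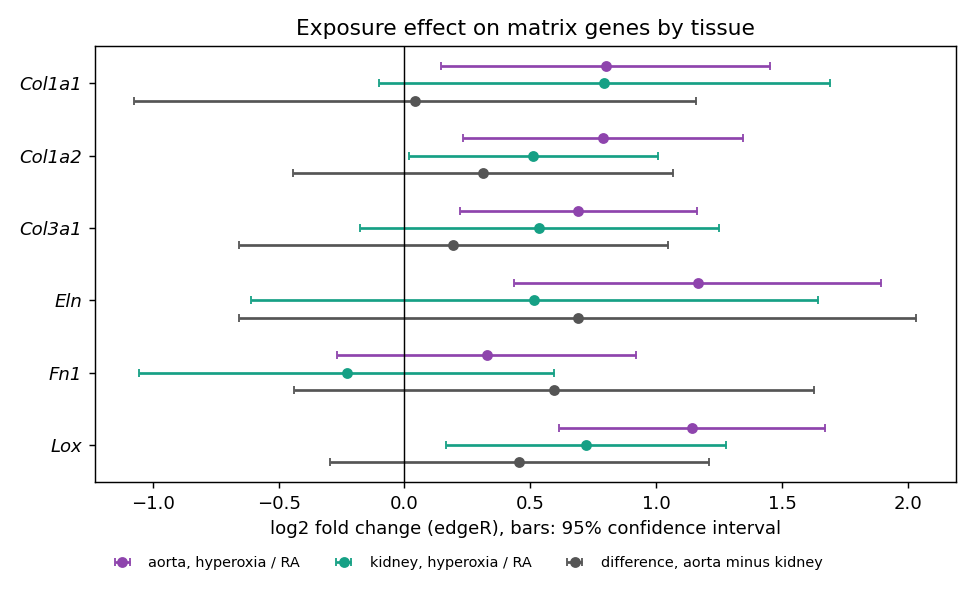
Log2 fold change of hyperoxia over RA for each gene in the aorta (purple) and kidney (green), and the difference between the tissues (grey), as edgeR estimates with 95% confidence intervals. Aorta intervals of all genes but Fn1 lie above 0 before adjustment, and all 6 intervals of the difference hold 0.

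The tissues themselves differed in every member. In RA rats the aorta was above the kidney by a log2 of 8.95 for Eln (SE 0.62), 6.39 for Col3a1 (SE 0.36), 6.27 for Col1a1 (SE 0.46), 6.14 for Lox (SE 0.31), 5.999 for Col1a2 (SE 0.31) and 5.13 for Fn1 (SE 0.41). All 6 passed the edgeR test, with adjusted p-values between 2.13e-10 and 2.79e-08, against 34.5% of genes called higher in the aorta. In hyperoxia rats the log2 gap was 9.64 for Eln and 5.72 to 6.59 for the others. The lowest aorta exceeded the highest kidney by 13.3-fold for Col1a1 and by 74.0-fold for Eln. The tissues came as separate tables of different depth, and the tissue cannot be told apart from any difference in how the tables were made.

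Ratios between members within a library do not depend on scaling, and 18 were tested by an exact two-sided permutation test, whose smallest possible p with 4 against 4 is 0.0286. None passed after adjustment. The Fn1/Eln ratio of estimated counts in the aorta was 1.36 in RA replicate 1 and at least 0.652 in the other RA libraries, against 0.319 to 0.531 in hyperoxia. Less fibronectin transcript relative to elastin was thus seen in each hyperoxia aorta than in any RA aorta, with a log2 difference of -0.93 (exact permutation p = 0.0286, adjusted p = 0.514). The ratios of Col3a1, Col1a2 and Col1a1 to Eln differed by -0.56, -0.42 and -0.38 on the log2 scale and overlapped (exact p = 0.0857, 0.171 and 0.143). Lox/Eln differed by -0.09 (exact p = 1) and Col1a2/Col1a1, the ratio of the chains of type I collagen, by -0.04 (exact p = 0.886). The Lox/Eln value depended on RA replicate 1, at 0.142 against 0.0539 to 0.0652 in the other RA aortas and 0.0670 to 0.0760 in hyperoxia. Without that library the log2 difference was 0.22 and the groups did not overlap. The exact p-values in the kidney lay between 0.229 and 0.8.

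**Figure D5:**
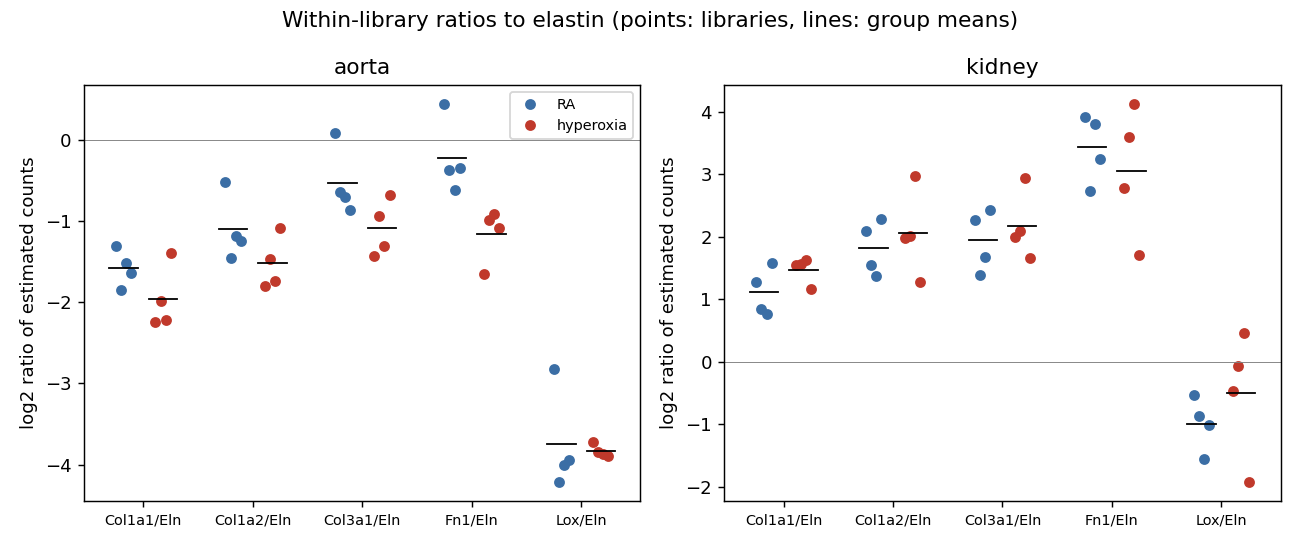
Log2 ratio of estimated counts of each gene to Eln in each library of the aorta and kidney, with RA in blue, hyperoxia in red and black lines for group means. In the aorta the Fn1/Eln ratios of the groups do not overlap, RA replicate 1 lies highest in each of the 5 ratios, and in the kidney all 5 overlap.

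Levels of the members were also compared with each other across the libraries of a tissue. In the aorta, where group differences would inflate a pooled correlation, deviations from the group means correlated over 8 libraries with r = 0.94 for Col1a2 with Col3a1 (exact permutation p within groups 0.00694, adjusted 0.0694, rank correlation within groups 0.8, exact p 0.0625), and r was 0.94 without the 2 farthest libraries. For Col1a1 r was 0.95 with Col1a2 and 0.92 with Col3a1 (exact permutation p 0.0260 and 0.0191, adjusted 0.130 and 0.115, rank correlation 0.9 for each, exact p 0.0243). Deviations of Eln, Fn1 and Lox correlated with the collagens at r from 0.39 to 0.77, and 0 of these 9 pairs had an exact permutation p under 0.05. In the kidney r over the 8 libraries was 0.96 for Col1a2 with Col3a1 (Spearman's rho 0.81, exact p 0.000868 and 0.0218, adjusted 0.00651) and 0.79 without the 2 farthest libraries, and deviations from the group means gave r = 0.97 (exact permutation p within groups 0.00347, adjusted 0.0521). Col1a1 with Col1a2 gave r = 0.93 (rho 0.88, exact p 0.00216 and 0.00724, adjusted 0.0113) and 0.55 without them, and the deviations gave r = 0.93 (exact permutation p within groups 0.0156, adjusted 0.115). Col1a1 with Col3a1 gave r = 0.91 (adjusted 0.0129), and its deviations gave r = 0.89 (exact permutation p within groups 0.00174, adjusted 0.0521). Kidney Col1a1 with Eln gave r = 0.90 (rho 0.67, exact p 0.0063 and 0.0831, adjusted 0.0157). Deviations of that pair gave r = 0.94 (exact permutation p within groups 0.0764), and 0.09 without the 2 farthest libraries. The other kidney pairs of a collagen with Eln, Fn1 or Lox had r from 0.17 to 0.78. Adjustments were over 30 pairs. As a description over the same 8 libraries, Col1a2 was the gene most like Col3a1 in the aorta among 15085 others and in the kidney among 15068 others, and Col1a2 ranked second for Col1a1 in the aorta. Shared library composition enters each of these values.

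Hyperoxia aorta replicates 2, 3 and 4 carry the same library numbers as hyperoxia kidney replicates 1, 2 and 3, which may mark the same animals, although the labels do not say so. The edgeR fit of all 16 libraries took them as independent. With these numbers as a block in limma voom, an alternative added after seeing the data, the difference between the tissues was 1.12 for Eln and 0.49 for Lox (adjusted p = 0.717 and 0.820), against 1.07 and 0.50 in limma voom without the block, and 0 members were called in either. Within these 3 numbers Eln was 981, 918 and 1820 times higher in the aorta than in the kidney.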

How the data were processed

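Per the labels and the study's methods, the authors quantified paired-end reads with kallisto against rn6 and deposited 1 table of estimated counts (expected counts) per tissue, with 24.3% to 28.8% of values not whole. All 16 libraries were used, grouped by the labels, and 0 columns were left unused. Estimated counts were rounded and tested per tissue in edgeR 4.0.16 (R 4.3.3) with filterByExpr at a minimum count of 10, TMM and the quasi-likelihood test, p-values adjusted by Benjamini-Hochberg over all genes kept. A call needed an adjusted p under 0.1 and a log2 fold change beyond 0.32 in either direction. DESeq2 1.42.0, limma 3.58.1 (voom), other scalings, no filter, thinned libraries and each library left out were alternatives. Standard errors and 95% intervals come from the edgeR F statistic. The fits were tested on simulated data. Named genes were all 6 members, plus, by identifier, the 2 genes per tissue with the highest r to the mean of the members' standardised log2 CPM. The members, lists and tests were chosen with earlier results of these data known. The 9 gene lists (81 symbols) meant for matrix pathways and cell type markers were not analysed here, since 0 of their symbols could be matched to identifiers. No 2 libraries of the same group agreed within sampling noise, and pairs from different groups were not checked. Whether libraries come from separate litters is not stated, so p-values measure the spread between these animals. The study left out 1 hyperoxia kidney that it does not name; all were kept here.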

Additional observations from a re-analysis of the deposited data

Results flagged for a closer look

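The genes and ratios were looked at group by group, as 60 sets of 4 libraries. In 5 sets, 1 library lay far from the other 3 for its set's range, where chance gives about 3.0. The sets share genes and libraries and are not independent, so 5 against 3.0 is a description only. RA aorta replicate 1 did so in 3 ratios, with a Lox/Eln ratio of 0.142, a Col1a2/Col1a1 ratio of 1.72 and a Lox/Col1a1 ratio of 0.351, each the highest of the RA aortas. Col1a1 in RA kidney replicate 2 stood below the other 3 RA kidneys at 14.8 CPM. The Col3a1/Col1a1 ratio of hyperoxia kidney replicate 3 was 2.48, above the other 3 hyperoxia kidneys. No cause was tested for these values.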

How the results depend on the processing

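The number of members called in the aorta was 0 with edgeR and 4 with DESeq2, and stayed at 0 under the other scalings, filters, voom, thinning and every fit without 1 library; the kidney stayed at 0 and the comparison of tissues in RA at 6. Of the kidney differences, Eln ranged from -0.16 to 0.81 and Fn1 from -0.48 to 0.086 with 1 library left out. The tissue difference for Col1a1 was -0.015 with upper quartile scaling, -0.0094 with library totals, and -0.23 to 0.52 without 1 library. For Eln the tissue difference was 0.39 to 1.36 without 1 library. With 1 library left out the aorta Fn1/Eln log2 difference was -1.06 to -0.71 (exact p 0.0571, the smallest 3 against 4 allows, so these p-values say nothing about stability), Lox/Eln -0.24 to 0.22 and Col1a2/Col1a1 -0.086 to 0.066. Without RA aorta replicates 1 and 2, chosen after seeing the data, these were -0.67 (exact p 0.133), 0.14 and 0.077, and Col3a1/Col1a1 was 0.083. In the kidney, leaving 1 library out gave -0.063 to 0.50 for Col1a2/Eln, -0.031 to 0.40 for Col3a1/Eln, -0.74 to 0.068 for Fn1/Eln, -0.37 to 0.037 for Col1a2/Col1a1 and -0.13 to 0.50 for Lox/Col1a1. Over all genes, calls in the aorta were 3 with edgeR, 170 with DESeq2, 20 with voom, 8 with no filter, 6 with the covariate and 2 to 15 without 1 library, in the kidney 0 with edgeR, 23 with DESeq2 and 390 with DESeq2 without hyperoxia replicate 2, and for the difference between tissues 0 with edgeR and 85 with DESeq2. With the shared library numbers as a block (voom, consensus correlation 0.13), the tissue difference for Eln was 1.12 and no member's call changed. Causes were not tested. For RA against hyperoxia, no paired analysis was possible because within each tissue no library number of an RA rat recurs in a hyperoxia rat. With 4 libraries a group, Col1a1, Col3a1, Eln and Fn1 in the kidney had intervals reaching both sides of 0.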

Other observations

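Outside the 6 members, the gene whose levels followed the members' mean most closely over the 8 aortas was ENSRNOG00000016511 (r = 0.992), at 39.6 to 51.3 CPM in RA and 52.9 to 58.4 CPM in hyperoxia, followed by ENSRNOG00000005406 (r = 0.986). In the aorta 263 genes had r above 0.9, and in the kidney 55 genes did, led by ENSRNOG00000009341 (r = 0.984) and ENSRNOG00000017824 (r = 0.963). Their names were not looked up, and a correlation picked as the highest among many genes is a description.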
